A study of Mus musculus with 9 samples.

Results

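The 10 genes followed here encode proteins that move amino acids across the plasma membrane of mouse embryonic stem (ES) cells: Slc7a1, Slc7a3, Slc7a5, Slc7a6, Slc7a7, Slc7a11, Slc3a2, Slc1a4, Slc1a5 and Slc38a2. They were chosen by name, and every probe whose symbol in the authors' deposited gene tables was one of these was read on all 9 Illumina beadchip arrays. On the array type of the Wdr5 set, 15 of 25697 probes stood for 9 of the genes, and Slc7a5 was not analysed there. On the array type of the Oct4 set, 24 of 46643 probes stood for all 10.

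Carriers of the Slc7 family fall into cationic amino acid transporters, which work as single chains, and light chains. The light chains followed here reach the membrane only when joined by a disulfide bond to the heavy chain Slc3a2 (4F2hc or CD98). The Slc1a4 and Slc1a5 carriers (ASCT1 and ASCT2) exchange small neutral amino acids for one another together with sodium, and Slc38a2 (SNAT2) takes such amino acids up against their gradient. When an amino acid runs short, the kinase Gcn2 (Eif2ak4) raises the translation of the transcription factor Atf4, which binds C/EBP-ATF response elements in the genes of several carriers and biosynthetic enzymes, while amino acids that have entered are sensed by mTORC1 at the lysosome.

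The Wdr5 set was made from Aniv15 ES cells, which express the reverse tetracycline transactivator. It held 2 arrays labelled as the luciferase control LucR with doxycycline and 3 of the rescue clone Wdr5R4 without it, in which Wdr5, a subunit shared by histone H3 lysine methyltransferases, was knocked down by a short hairpin RNA (shRNA). All 3 knockdown arrays came from that 1 clone, so that clone, hairpin and doxycycline differed together between the groups and cannot be told apart. The Oct4 set held 2 arrays of an Oct4 shRNA (its target, Pou5f1, is the pluripotency factor) and 2 of a GFP shRNA as control, in ES cells of the line CCE or E14T, and the labels leave the line of each sample unsaid. All cells grew on mouse embryonic fibroblast feeders in medium with LIF, serum, non-essential amino acids, glutamine and 2-mercaptoethanol. The growth text names doxycycline for every sample, against the label of the Wdr5 knockdown. No label says whether arrays of a group came from separate cultures, so the p-values measure only the spread between these arrays, which may be technical.

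Mean probe intensity was 375 to 518 on the arrays of the Wdr5 set. In the other set it was 278 and 344 with the GFP shRNA but 110 and 111 with the Oct4 shRNA. Wdr5 fell by 0.96 ± 0.07 on the log2 scale in its knockdown (SE, limma adjusted p = 0.000121), and Pou5f1 fell by 2.28 ± 0.15 in the Oct4 knockdown (adjusted p = 0.000685). The summed normalized signal of the ES cell markers was 52940 to 55901 in the luciferase control against 28192 to 28857 in the Wdr5 knockdown, and 23926 to 26946 in the GFP control against 6183 to 7040.3 in the Oct4 knockdown. The summed signal of the feeder fibroblast markers was 9249 to 9311 against 19605 to 19643 in the Wdr5 set, and 1594 to 1665 against 4558 to 5092 in the Oct4 set. In the Wdr5 set 21 of the 30 fibroblast markers were above background on at least 2 arrays, and Col1a2, Lum, Postn and Fap were not. Of the same 30, 12 were in the Oct4 set, and Col1a1, Col1a2, Col3a1, Dcn, Lum, Postn and Thy1 were not. The part of these cell type markers in the transporter values was not tested, and fewer cells of a type and less RNA per cell cannot be told apart in such bulk samples.

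In the Wdr5 knockdown the transporter genes differed from the control by small amounts and in both directions. Slc38a2, Slc7a7 and Slc7a6 rose by 0.37 to 0.56 on the log2 scale, Slc1a4 and Slc7a3 fell, and Slc3a2 did not pass the test. So 6 of the 9 genes on the platform were tested, 3 rose and 2 fell at a limma adjusted p under 0.05. Of all 10119 genes tested, 38.2% rose and 30.5% fell, and counts of 3 and 2 among 6 stand near that background. The median change of the 6 was 0.06, against 0.10 over all genes. Slc1a4, with the largest change of the 6, ranked 3946 of 10119 by size.

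Slc1a4 carries alanine, serine, cysteine and threonine. Its normalized log2 signal was 9.47 and 9.35 with the luciferase control and 8.73, 8.79 and 8.71 after Wdr5 knockdown. All 3 knockdown arrays lay below both controls, as they did for 35.2% of all genes tested. The gene fell by 0.66 ± 0.07 (SE), which is 1.59-fold lower, with a limma adjusted p of 0.000504. The intensities before normalization, 697 and 756 against 409, 387 and 343, were also separate.

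The sodium-coupled carrier Slc38a2 was read by 2 probes above background. The brighter gave 11.49 and 11.48 in the control and 11.93, 11.91 and 11.96 in the knockdown, a rise of 0.45 ± 0.06 or 1.37-fold (limma adjusted p = 0.00134). The other gave 10.67 and 10.42 against 10.94, 10.75 and 11.01, a rise of 0.35 ± 0.12 (adjusted p = 0.0388 among all probes fitted singly, of which 68.7% passed). On both probes every knockdown array stood above every control array, as for 43.9% of all genes. The remaining probe with this symbol was not above background on any array.

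The light chains Slc7a7 (y+LAT1) and Slc7a6 (y+LAT2) export cationic amino acids in exchange for neutral ones with sodium, each joined to Slc3a2. The brighter probe of Slc7a7 gave 8.48 and 8.65 in the control and 9.07, 9.21 and 9.10 in the knockdown, a rise of 0.56 ± 0.09 or 1.48-fold (limma adjusted p = 0.00194). Its second probe gave 8.28 and 8.37 against 8.86, 8.80 and 8.71, a rise of 0.47 ± 0.08 (adjusted p = 0.00337 among single probes). After normalization both probes placed all knockdown arrays above the controls. Before it both overlapped. Intensities of the brighter were 357 and 471 against 526, 529 and 463, and of the second 312 and 388 against 451, 389 and 344. Slc7a6 gave 7.66 and 7.95 in the control and 8.21, 8.21 and 8.11 in the knockdown, a rise of 0.37 ± 0.10 (adjusted p = 0.0204). The groups did not overlap, but the call on Slc7a6 was lost without luciferase replicate 1 (0.23, adjusted p = 0.0983), without knockdown replicate 1 (0.36, adjusted p = 0.0517) and without knockdown replicate 2 (0.35, adjusted p = 0.0544). It was also lost when arrays were scaled to a common median (0.23, adjusted p = 0.150). The separation of Slc7a6 held only after normalization, as its intensities overlapped, at 200 and 292 against 271, 247 and 218.

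Their shared heavy chain Slc3a2 gave 6.75 and 6.48 in the control and 6.21, 5.93 and 6.51 in the knockdown. The groups overlapped, through knockdown replicate 3, and the difference of -0.40 ± 0.18 did not pass (limma adjusted p = 0.103). Without that array it was -0.54 (adjusted p = 0.0250), and under a common median -0.63 (adjusted p = 0.00798).

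Slc7a3 (CAT3), a carrier of arginine, lysine and ornithine, gave 11.44 and 11.54 in the control and 11.21, 11.25 and 11.24 in the knockdown. The arrays did not overlap, and the gene fell by 0.25 ± 0.07 or 1.19-fold (limma adjusted p = 0.0185). The call was lost without luciferase replicate 2 (-0.21, adjusted p = 0.0967) and under a common median (-0.20, adjusted p = 0.105). With the median taken over probes detected on every array, an alternative chosen after seeing the data, the difference was -0.07 (adjusted p = 0.399). A second Slc7a3 probe was not above background on any array, nor were the probes of Slc1a5 (2), of Slc7a1 (2) and of Slc7a11 (1). Slc1a5 is the main glutamine exchanger, Slc7a1 (CAT1) the widespread arginine carrier and Slc7a11 (xCT) the cystine-glutamate exchanger. These genes were not well above background and were not tested.

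**Figure D1:**
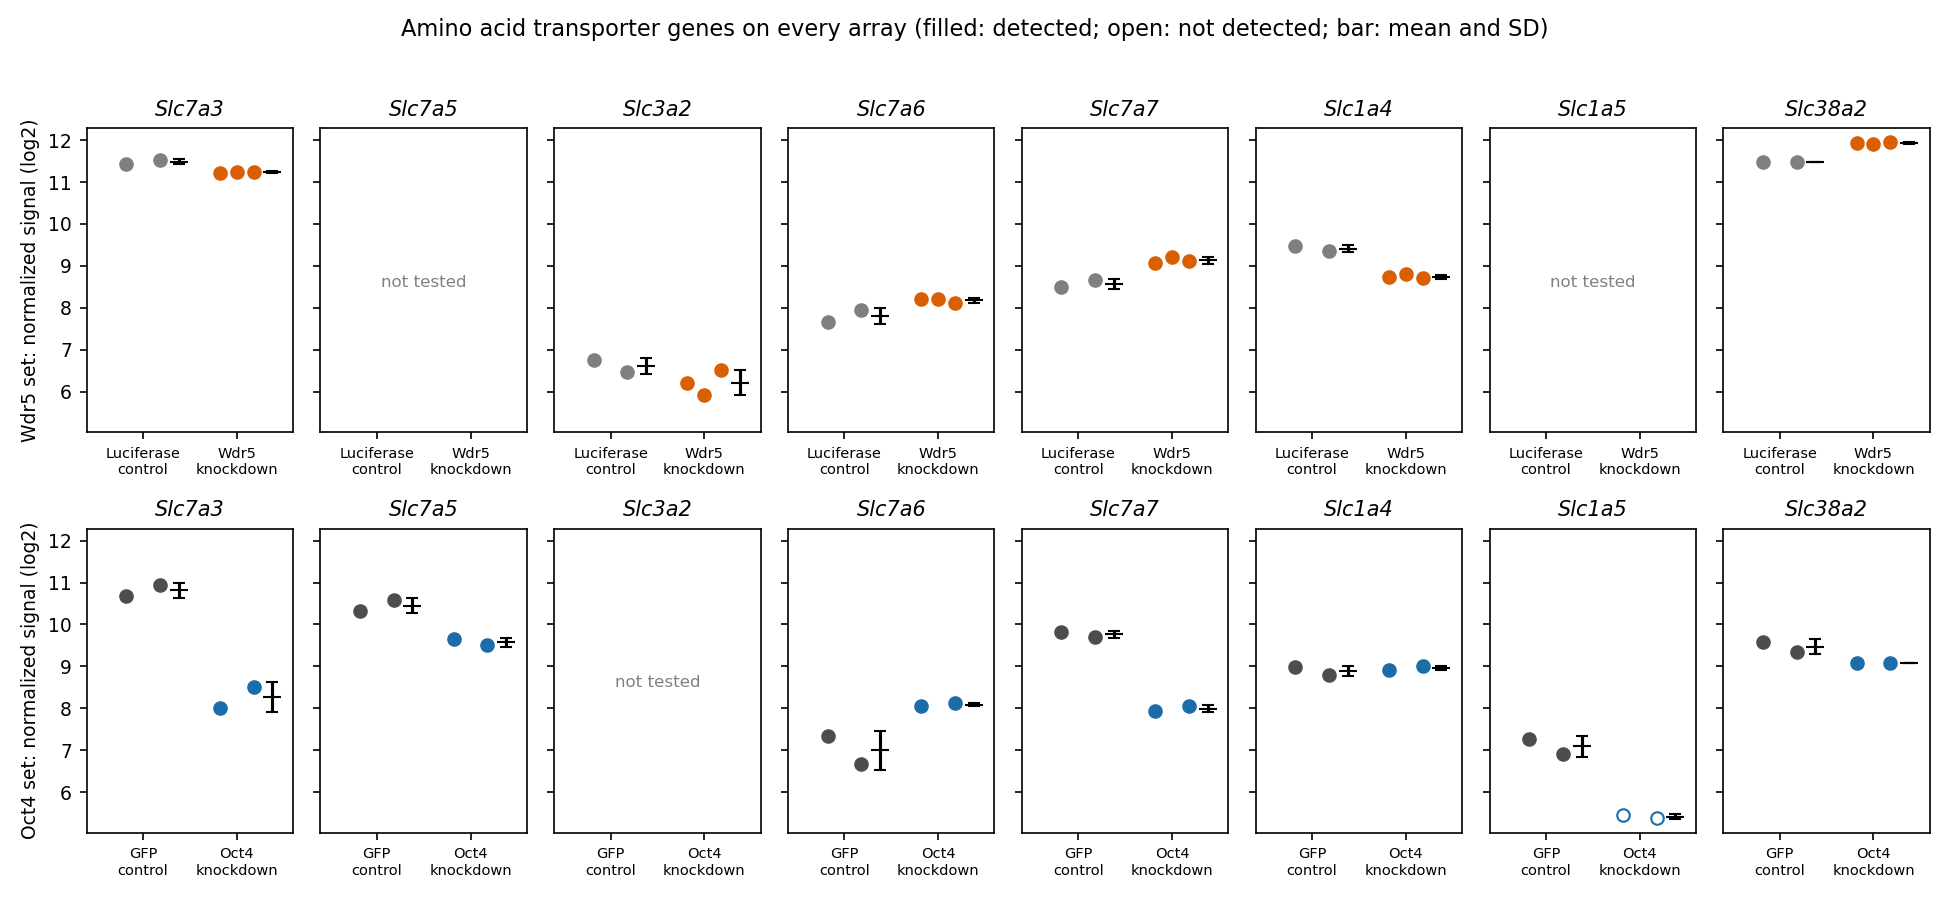
Normalized log2 signal (vertical axis) of the tested probe of 8 transporter genes on each array, in the Wdr5 set (top row) and the Oct4 set (bottom row). Each point is 1 array, filled where the probe was detected and open where it was not, and the bar gives the group's mean and SD; in the bottom row Slc7a3 sits at 10.68 and 10.94 with the GFP shRNA and at 8.01 and 8.52 with the Oct4 shRNA. Signals of different genes come from different probes and are not comparable with one another.

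Promoter windows of RefSeq (GRCm38.p6, 250 bases before the start to 50 after it) were at hand for 7 of the 10 genes, as 13 windows. Slc7a3, Slc7a5 and Slc1a5, all called lower in the Oct4 knockdown, had no window and were not searched. The 13 windows were searched on both strands for the C/EBP-ATF element, TGATGNAA, and for the octamer that Oct4 binds, ATGCAAAT. The first was found in 4 of the 13 windows, belonging to Slc1a4, Slc7a7 and Slc7a11. The pair of Slc7a7 windows that hold it overlap and share a match: the one at -1 of the first is the one at -243 of the other. It is held by 3.97% of all 32851 windows given, and 4.51% of the 27025 genes have a window with it. The octamer was found once, in the Slc7a11 window, where it overlaps a C/EBP-ATF match; 1.74% of all windows hold it. Slc1a4 and Slc7a7 are shown because both windows hold the element while the genes moved in opposite directions in the Wdr5 knockdown. Capitals mark the element, which in Slc1a4 lies on the opposite strand from position -4 to 3, and in this window of Slc7a7, 1 of its 5, lies at -141 to -134 and at -1 to 6, counted from 0 at the start. A match is a run of letters, and nothing here shows that a factor binds it.
Slc1a4 (chr11:20332664-20332963, GRCm38.p6, minus strand): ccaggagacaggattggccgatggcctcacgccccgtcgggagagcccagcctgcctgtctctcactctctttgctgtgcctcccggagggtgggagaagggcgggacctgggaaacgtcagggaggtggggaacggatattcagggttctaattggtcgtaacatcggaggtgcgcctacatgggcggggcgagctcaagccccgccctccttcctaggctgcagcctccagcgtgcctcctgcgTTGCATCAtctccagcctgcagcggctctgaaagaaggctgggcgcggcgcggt
Slc7a7 (chr14:54417895-54418194, GRCm38.p6, minus strand): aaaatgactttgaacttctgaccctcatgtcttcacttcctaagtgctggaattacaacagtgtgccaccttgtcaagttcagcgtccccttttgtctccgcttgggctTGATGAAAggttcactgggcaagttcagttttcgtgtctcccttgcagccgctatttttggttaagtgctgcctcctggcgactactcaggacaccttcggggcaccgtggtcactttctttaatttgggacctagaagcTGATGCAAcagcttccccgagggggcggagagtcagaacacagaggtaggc

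In the Oct4 knockdown most of the transporter genes that passed the test were lower than in the GFP control. Slc7a3 fell 5.85-fold, Slc7a7 3.42-fold and Slc7a5 1.83-fold, Slc1a5 was above background only in the control, and Slc7a6 rose 2.12-fold. Of the 10 genes 7 were tested, of which 4 fell and 1 rose at a limma adjusted p under 0.05. The falls include Slc1a5, whose direction was set by the filter because it was not above background in the knockdown. Over all 9276 genes tested, 18.1% fell and 24.3% rose. The median change of the 7 was -0.87, or -0.77 with Slc1a5 set at its bound, against -0.02 over all genes.

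Slc7a3 had the largest change. Its control arrays gave 10.68 and 10.94, its knockdown arrays 8.01 and 8.52. Both knockdown arrays lay far below both controls, and the difference of -2.55 ± 0.22 (SE, limma adjusted p = 0.00129) ranked 149 of 9276 genes by size. Its intensities were 2763 and 2566 against 129 and 180, which also carries the lower brightness of the knockdown arrays. Across 16 other settings the difference ran from -3.14 to -1.55 and passed each time, also with either array of each group left out. The difference of -1.55 came from the authors' own log2 values. A second, dim probe was not above background on any array.

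For Slc7a7 the arrays gave 9.82 and 9.71 in the control against 7.93 and 8.05 in the knockdown, a fall of 1.77 ± 0.14 (limma adjusted p = 0.00114). The groups were separate, as for 34.5% of all genes in this direction, and the difference passed in each of 16 other settings (-2.34 to -0.90). The other 2 probes with this symbol were not above background. Single probes passed in 42.5% of cases in this set. Slc7a6, the other y+L light chain, gave 7.33 and 6.67 against 8.06 and 8.12, a rise of 1.08 ± 0.24 (adjusted p = 0.0178). After normalization both knockdown arrays lay above both controls, as for 38% of all genes, but GFP replicate 2 was just above the detection limit with a score of 0.951. Before it the Slc7a6 intensities were 241 and 141 with the GFP shRNA against 133 and 137.5 on the dimmer knockdown arrays. So the rise of Slc7a6 appeared only after normalization. The Slc7a6 call was lost without Oct4 knockdown replicate 1 (adjusted p = 0.106), without replicate 2 (adjusted p = 0.0994), with no filter on dim probes (adjusted p = 0.0818) and under a common median (0.50, adjusted p = 0.267). The difference between the changes of Slc7a6 and Slc7a7 was not tested.

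Slc7a5 (LAT1) is the light chain that imports leucine and other large neutral amino acids. It gave 10.33 and 10.57 in the control against 9.65 and 9.50 in the knockdown, a fall of 0.87 ± 0.16 (limma adjusted p = 0.00956). The groups did not overlap. The call was lost without knockdown replicate 1 (-0.96, adjusted p = 0.0826) and without replicate 2 (-0.80, adjusted p = 0.0951). The only Slc3a2 probe of this platform had scores of 0.887, 0.821, 0.690 and 0.888 and was not above background, so the heavy chain was not tested beside its light chains.

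Slc1a5 was read by 5 probes, of which 1 was above background, on the control arrays alone. It gave 7.27 and 6.92 on the GFP arrays, while its intensities on the knockdown arrays, 5.3 and 3.7, lay under the lowest detected intensity of 38.4 and 28.5 there. The gene was at least 1.70-fold lower, set against the lowest signal detected on each knockdown array. It passed the filter only through the control, so its direction was given by the filter.

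Slc38a2 gave 9.59 and 9.35 in the control and 9.07 on each knockdown array. The groups did not overlap, yet the difference of -0.40 ± 0.15 missed the threshold (limma adjusted p = 0.0892). It passed under a common median (-1.01, adjusted p = 0.0199), a scaling that moved the median of all genes to -0.53. In that fit each tested transporter gene had the same SE, 0.36. The difference also passed on the authors' deposited log2 values (-0.25, adjusted p = 0.0192) and with a variance trend (adjusted p = 0.0365). In the authors' deposited table this probe changed by -0.25 with an adjusted p of 0.0449. The same authors' deposited table gave a second, dim Slc38a2 probe 0.12 with an adjusted p of 0.0344, in the other direction; that probe was not above background here. The exchanger Slc1a4 gave 8.98 and 8.80 against 8.92 and 8.999. The arrays overlapped, and the difference was 0.07 ± 0.15 (adjusted p = 0.718), with a range of -0.52 to 0.16 over 16 other settings, none of which passed.

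Neither Slc7a1 (2 probes) nor Slc7a11 (6 probes) was tested. Of these 8 probes a single value passed the detection score, of 1 Slc7a11 probe on Oct4 knockdown replicate 2 (0.974). All other values of these probes were not above background on the 4 arrays.

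**Figure D2:**
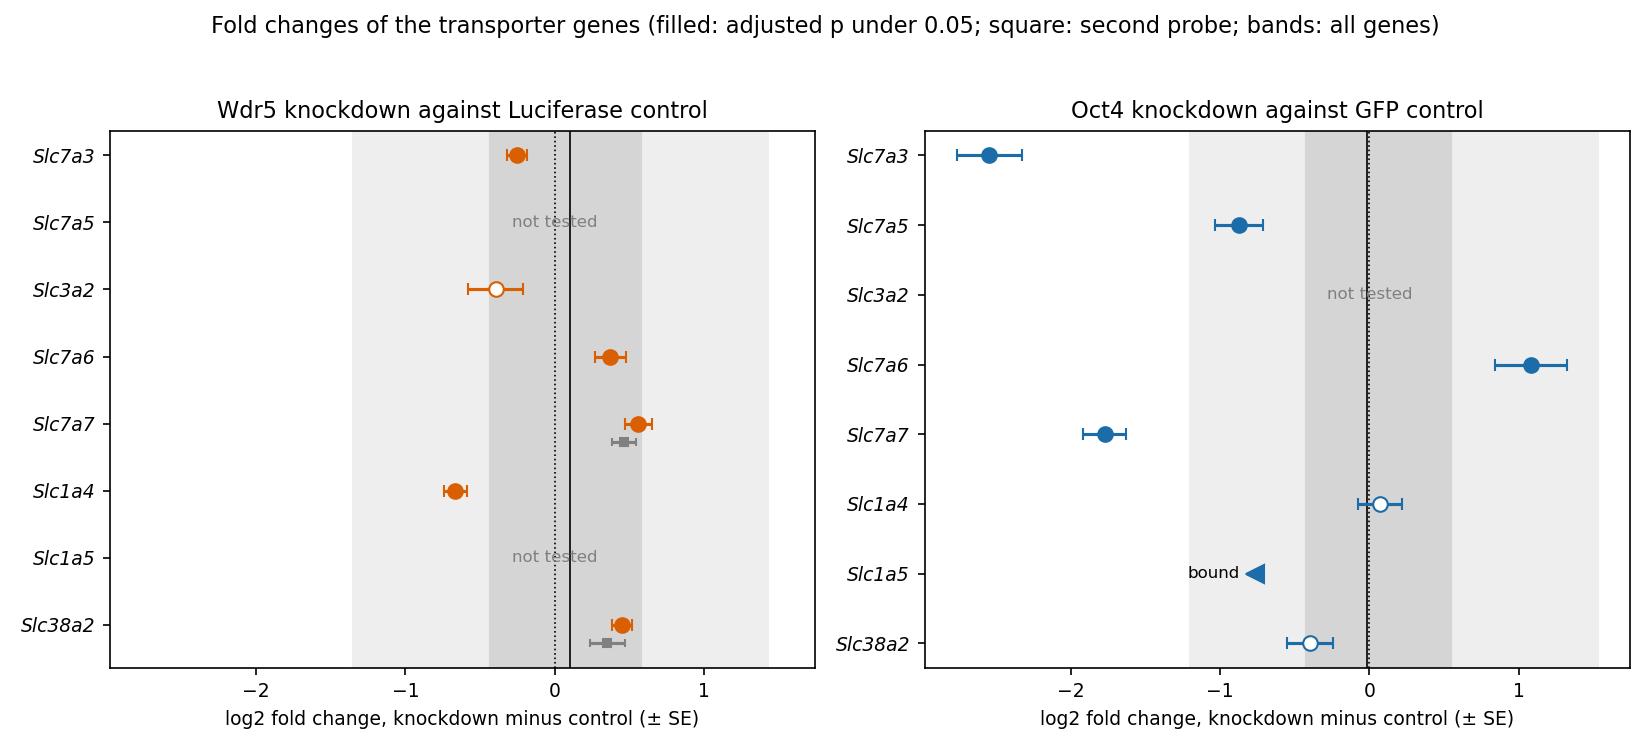
Log2 fold change, knockdown minus control (horizontal axis), with its SE for each tested transporter gene, in the Wdr5 set (left) and the Oct4 set (right). Filled circles passed an adjusted p of 0.05, open circles did not, grey squares are second probes, the triangle is the bound on Slc1a5, the vertical line is the median of all genes and the bands hold the middle 50% and 90% of them; all 6 genes on the left lie within the wider band, -1.35 to 1.43, while Slc7a3 and Slc7a7 on the right lie below theirs, -1.20 to 1.53.

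The sets used separate platforms, cell lines and controls and were not tested against each other. Wdr5 and Pou5f1 were both lower in each knockdown, so the sets do not separate the loss of one from that of the other. Side by side, Slc7a3 fell in both, with differences of -0.25 and -2.55. Slc7a6 rose in both, by 0.37 and 1.08. Slc7a7 rose by 0.56 in the Wdr5 knockdown and fell by 1.77 in the Oct4 knockdown. Slc1a4 fell by 0.66 in the former and gave 0.07 in the latter, and Slc38a2 rose by 0.45 in the former and gave -0.40 in the latter, where neither passed.

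The scaling between arrays bears on the direction of all genes in the Oct4 set. Of the calls there, 57.3% were higher after quantile normalization, 17.3% when arrays were scaled to a common median and 62.1% when that median was taken over probes detected on every array. The common median moved the median of all genes from -0.02 to -0.53. Relative to that median, Slc7a3 was at -2.61, Slc7a7 at -1.81, Slc7a5 at -1.001, Slc38a2 at -0.48, Slc1a4 at 0.01 and Slc7a6 at 1.03. The order of these genes was thus the same as after quantile normalization. A common median shifts all genes of an array alike, so the choice of that median could not change the order.

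**Figure D3:**
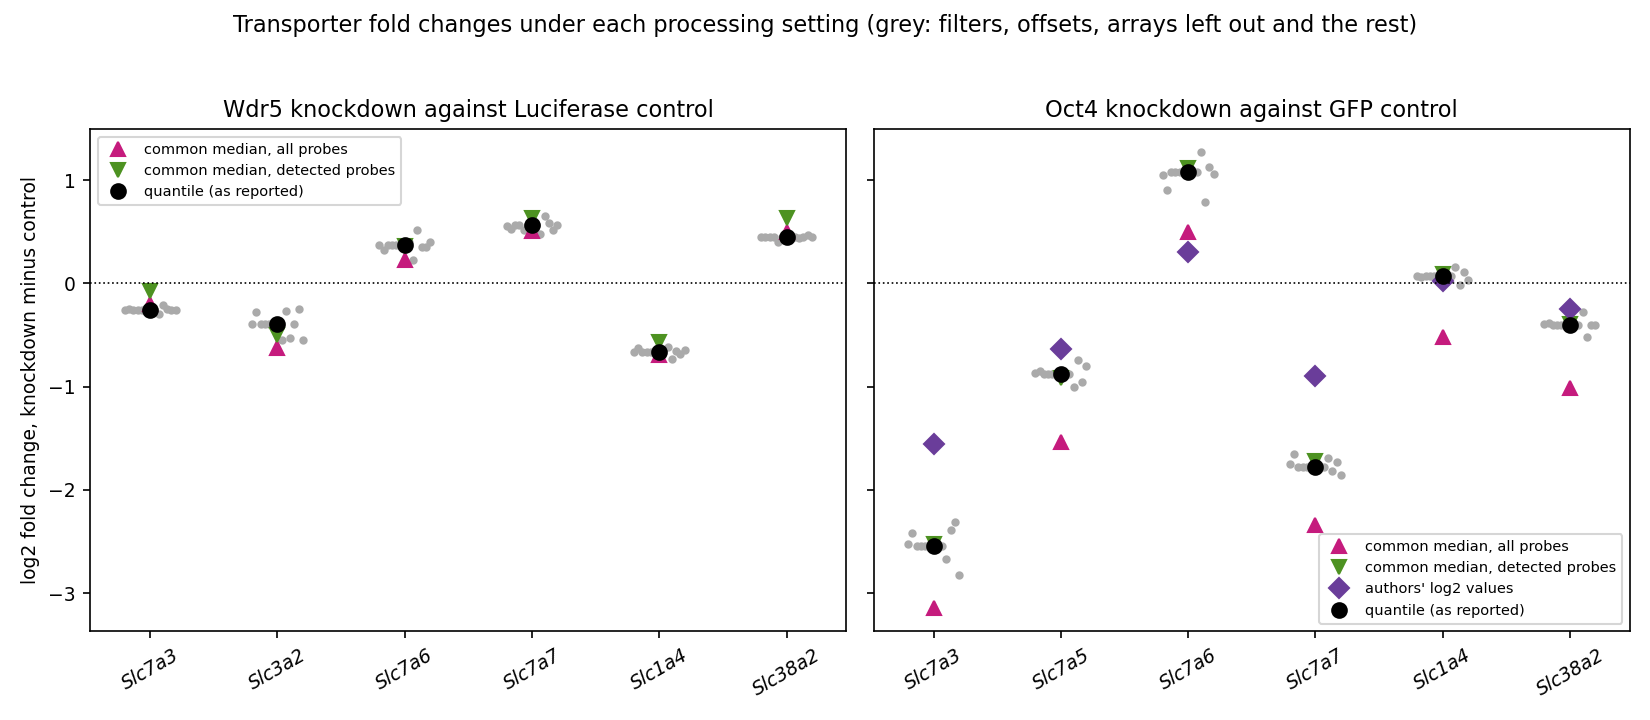
Log2 fold change, knockdown minus control (vertical axis), of the tested transporter genes under each processing setting, in the Wdr5 set (left) and the Oct4 set (right). Black circles are the reported values, coloured symbols are other scalings and the authors' log2 values, and grey points are other filters, offsets, fits and arrays left out; Slc1a5 is left out because it has only a bound. Slc7a3 in the Oct4 set runs from -3.14 to -1.55, and Slc1a4 there crosses 0.

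The wider family of 44 other amino acid carriers showed no common direction in the Wdr5 set. Of 24 tested, 7 rose, 7 fell and 10 did not pass, with a median of 0.09. Over all genes, 38.2% rose and 30.5% fell. Among those counted, Slc1a1 was above background only in the control and Slc36a1 only in the knockdown, so the filter set their directions. Slc38a5 (SNAT5), a glutamine and glycine carrier, fell by 1.47 ± 0.09. Slc1a1 (EAAT3), which carries glutamate and cysteine, was at least 2.40-fold lower, not above background in the knockdown. The lysosomal cationic amino acid exporter Slc66a1 rose by 1.11 ± 0.09, and the aromatic amino acid carrier Slc16a10, detected on 1 of 2 control arrays, by 1.28 ± 0.18. Slc38a5, Slc66a1 and Slc16a10 had limma adjusted p values of at most 0.00114. In the Oct4 set 15 were tested, 3 rose, 0 fell and 12 did not pass, where 24.3% of all genes rose and 18.1% fell. The median was 0.31, or 0.00 with genes detected in 1 group at their bounds. Slc38a4 (SNAT4) rose by 1.49 ± 0.14 (adjusted p = 0.00168) and Slc38a7, a lysosomal glutamine exporter detected on 1 of 2 control arrays, by 1.04 ± 0.26 (adjusted p = 0.0272). Slc38a11, below background in the control and tested only through the knockdown, was at least 1.06-fold higher. The filter thus set the direction of Slc38a11.

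Of 20 genes of the Atf4 response to amino acid shortage tested in the Wdr5 set, 12 fell, 3 rose and 5 did not pass, where 30.5% of all genes fell and 38.2% rose. Their median was -0.52, against 0.10 over all genes. The enzymes of serine synthesis Phgdh and Psat1 fell by 2.76 ± 0.08 and by 2.10 ± 0.08. The pseudokinase Trib3 fell by 1.28 ± 0.13, and Mthfd2, of mitochondrial folate metabolism, by 1.22 ± 0.11. These 4 had limma adjusted p values of at most 0.000328. Atf4 itself gave 0.09 (adjusted p = 0.279); it was named after its values were seen. Slc1a4 fell beside these genes while Slc38a2 and Slc7a7 rose. Among 17 of the list tested in the Oct4 set, 6 fell, 1 rose and 10 did not pass, with a median of -0.29, where 18.1% of all genes fell and 24.3% rose. Chac1, a glutathione-degrading enzyme, fell by 2.08 ± 0.14, the stress regulator Nupr1 by 1.58 ± 0.15 and Trib3 by 1.15 ± 0.17, while Ddit3 (CHOP) rose by 1.57 ± 0.14 (adjusted p at most 0.00488).

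Of the genes that carry the amino acid signal to mTORC1, 25 were tested in the Wdr5 set, of which 10 rose, 8 fell and 7 did not pass, with a median of 0.07. These counts lie near the shares over all genes, 38.2% and 30.5%. Rraga, counted among the rises, was below background in the control, so the filter set its direction. Akt1s1 and Deptor, both inhibitors bound to mTOR, rose by 1.25 ± 0.07 and 0.97 ± 0.08. Nprl3, of the GATOR1 complex, rose by 0.84 ± 0.12, and the Rag GTPase Rragd fell by 1.04 ± 0.08 (limma adjusted p at most 0.00153). After Oct4 knockdown 4 of 20 rose, 3 fell and 13 did not pass, with a median of -0.06, beside 24.3% and 18.1% of all genes. The arginine sensor Castor1 fell by 0.73 ± 0.17 and the mTOR subunit Mlst8 by 0.97 ± 0.14. The Rag GTPase Rragc rose by 0.71 ± 0.15, and Mios, of GATOR2 and detected on 1 of 2 control arrays, by 0.82 ± 0.22 (adjusted p at most 0.0314).

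Cystine brought in by Slc7a11 feeds glutathione synthesis, and Nrf2 (Nfe2l2) drives many genes of that route. Of 15 tested in the Wdr5 set, 4 rose, 5 fell and 6 did not pass, with a median of -0.12, beside 38.2% and 30.5% of all genes. Nfe2l2, detected on 1 of 3 knockdown arrays, fell by 1.88 ± 0.11. Bach1, a repressor at the same sites, rose by 2.20 ± 0.11. The transsulfuration enzyme Cth fell by 1.39 ± 0.17 and the lipid peroxidase Gpx4 by 1.36 ± 0.07 (limma adjusted p at most 0.000718). After Oct4 knockdown 3 of 11 rose, 1 fell and 7 did not pass, with a median of -0.01, beside 24.3% and 18.1% of all genes. Nqo1 fell by 1.16 ± 0.14 (adjusted p = 0.00274). The 3 that rose, Txnrd1, Bach1 and Gss, were below background in the control and at least 1.73-fold, 1.51-fold and 1.52-fold higher. They entered the test only through the knockdown arrays, so the filter set their direction and this count of rises.

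The markers that moved with these groups were the following. Of 21 fibroblast markers tested in the Wdr5 set 17 rose, 2 fell and 2 did not pass (median 1.66). Over all genes, 38.2% rose and 30.5% fell. Cav1 and Serpinf1 rose by 4.53 ± 0.19 and 3.66 ± 0.09. Lox and Dcn, below background in the control, rose by at least 29.4-fold and 8.87-fold. S100a4, also counted as a rise, was likewise below background in the control. For Lox, Dcn and S100a4 the filter set the direction. Thy1 and Pdgfra fell, at -0.44 and -0.43 (limma adjusted p = 0.00507 and 0.00978), while Mmp2 and Fstl1 did not pass. Of 13 ES cell markers 12 fell and 1, Lin28a at 0.36, did not pass (median -1.27, or -1.01 with bounds). Zfp42 was at -2.80, Dppa3 at -2.45, Klf4 at -1.996 and Fbxo15 at -1.65. Fgf4, counted among the falls, was below background in the knockdown, so the filter set its direction. In the Oct4 set 7 of 12 fibroblast markers rose, 0 fell and 5 did not pass (median 1.15, or 0.59 with bounds), where 24.3% of all genes rose and 18.1% fell. Tagln, Timp2 and Cav1, below background in the control and tested only through the knockdown, were at least 7.69-fold, 5.52-fold and 2.00-fold higher. Col5a2, also counted as a rise, was likewise below background in the control. For these genes the filter set the direction, and so part of the count of rises. Fstl1 rose by 1.92 ± 0.15. Col5a1, Fbn1, Mmp2, Col6a2 and Prrx1 did not pass, at 0.45, 0.45, 0.18, -0.23 and -0.13. Of 10 ES cell markers 8 fell and 2 did not pass (median -1.94), with Fbxo15 at -2.57, Sox2 at -2.42, Pou5f1 at -2.28 and Nanog at -2.24. Klf4, at 0.02, and Lin28a, at -0.13, were those that did not pass. Each named marker that passed and was above background in both groups had a limma adjusted p of at most 0.00480, apart from Thy1 and Pdgfra in the Wdr5 set.

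**Figure D4:**
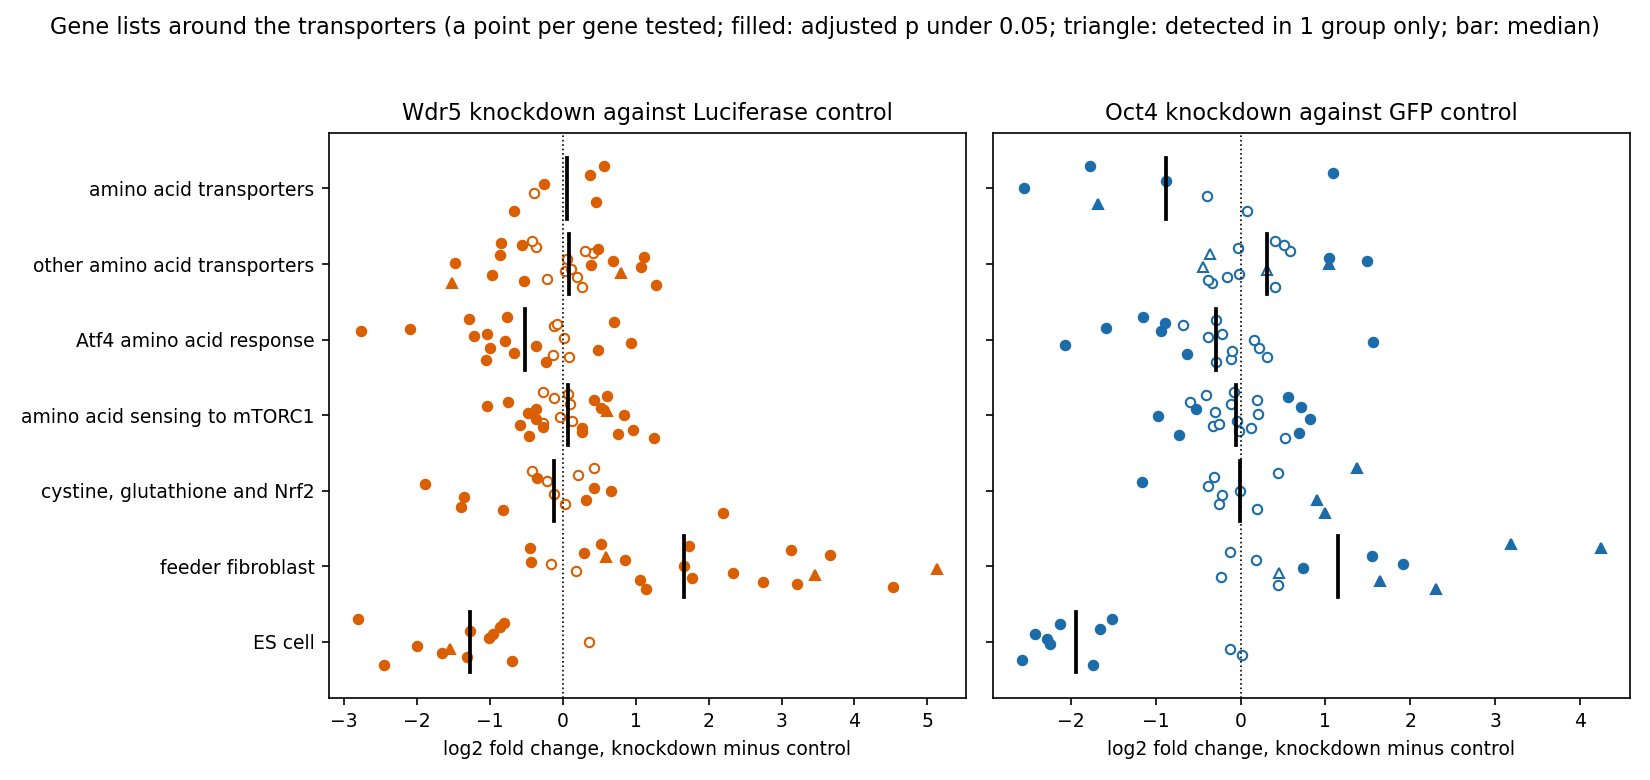
Log2 fold change, knockdown minus control (horizontal axis), of each tested gene of 7 lists (vertical axis), in the Wdr5 set (left) and the Oct4 set (right). Filled points passed an adjusted p of 0.05, triangles are genes detected in 1 group only, whose position is a fitted value, and bars are list medians; the transporter genes spread from -0.66 to 0.56 on the left and from -2.55 to 1.08 on the right.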

How the data were processed

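The authors deposited probe intensity values, not normalized between arrays and already below 0 for dim probes, each with a detection score that is a fraction from 0 to 1. The authors also deposited normalized log2 values, and tables of log2 fold changes with p-values, per the file headers. The submitters' processing notes name limma, with no role; normalization method and scanner software: not given in the sources used here. For the Wdr5 set, probe names beside the log2 values had no match among those of the gene table.

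Here limma 3.58.1 in R 4.3.3 applied a normal-exponential background correction based on the detection scores (nec), an offset of 16, quantile normalization within each set and log2. The offset pulls changes of dim probes towards 0, and quantile normalization makes changes relative to the other genes. Probes with a score above 0.95 on at least 2 arrays were kept, and the brightest kept probe stood for a gene. Each comparison was fitted separately with lmFit and eBayes on group, two-sided, with Benjamini-Hochberg adjustment over all genes tested. The step was tested on simulated data. Symbols came from accessions matched to RefSeq GRCm38.p6 for 24202 and 25596 probes, otherwise from the deposited table. A bound sets the brighter group's mean against the lowest detected signal of each array of the other group, and holds for this processing. The number of arrays limits the precision.

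The 10 genes and the further lists were chosen with earlier results of these data known. Beside the 10 genes and the hairpin targets, the text names, per list and comparison, the 4 genes of largest change among those with an adjusted p under 0.05 and above background on every array of a group. Also named are called genes whose direction the filter set, the fibroblast markers that fell, and the fibroblast and ES cell markers that did not pass. Alternatives changed the background correction, offset, scaling, filter, choice of probes, variance model, replicate block and arrays used.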

Additional observations from a re-analysis of the deposited data

Results flagged for a closer look

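For 2 of the transporter genes the normalized signal of every Wdr5 knockdown array lay on one side of its controls. That of every Oct4 knockdown array lay on the other. Before normalization the Slc7a7 arrays of the Wdr5 set overlapped. Slc7a7 was 0.56 higher in the Wdr5 knockdown and changed by -1.77 in the Oct4 knockdown (log2, limma). Slc38a2 was 0.45 higher in the Wdr5 knockdown and differed by -0.40 in the Oct4 knockdown, where it did not pass the test. The sets differ in platform and cell line, and the difference between them was not tested. Such separation was common over all genes: knockdown arrays lay above the controls for 43.9% and below for 35.2% in the Wdr5 set, and for 38% and 34.5% in the Oct4 set.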

How the results depend on the processing

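Alternatives were run for the transporter genes and for the counts over all genes, not for the further lists. No transporter gene that passed a test changed direction in them. In the Wdr5 set 15 alternatives were run and in the Oct4 set 16. In all of theirs, Slc1a4, Slc38a2 and Slc7a7 passed after Wdr5 knockdown, as did Slc7a3 and Slc7a7 after Oct4 knockdown. Slc1a5 had its direction given by the filter, so its settings say nothing of stability. Leaving out each array in turn gave 1 to 3 transporter genes lower in the Wdr5 set, 1 without luciferase replicate 2. In the Oct4 set it gave 805 to 4527 genes called, with 805 without knockdown replicate 1 and 1272 without replicate 2, and 0 to 1 transporter genes higher. No transporter gene was higher in the Oct4 set (0, against 1) under a common median or with no filter on dim probes. An arm left with 1 array was assumed to vary like the other group.

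The replicate numbers did not pair the arrays: same-numbered arrays had deviations correlated at -0.03 and -0.01 (Wdr5 set) and -0.36 (Oct4 set). A replicate block in the Wdr5 set left out knockdown replicate 3, which has no same-numbered control. It gave 6426 genes called of 9884 tested, with 3 transporter genes higher and 2 lower. Slc7a3 lost its call (-0.25, limma adjusted p = 0.0633) while Slc3a2 gained one (-0.54, adjusted p = 0.00844). Without that array and with no block, Slc3a2 was also at -0.54 (adjusted p = 0.0250), and Slc7a3 kept its call (-0.25, adjusted p = 0.0397). The replicate block gave 3305 genes called in the Oct4 set, with 1 transporter gene higher and 4 lower. With crossed numbers, added after seeing the data, it gave 4719 in the Oct4 set. The deposited log2 values were not run as an alternative for the Wdr5 set, since its probe names could not be matched. With every kept probe fitted singly, 9295 probes passed for Wdr5 and 4817 for Oct4. Genes not well above background in both groups were not compared.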
